A study of Mus musculus with 6 samples.

Results

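The TNF receptor superfamily is a family of cell-surface receptors that bind trimeric ligands of the TNF superfamily through cysteine-rich repeats. Some members carry a death domain in the cytoplasmic tail and can recruit adaptors that activate caspases, whereas others bind TRAF adaptor proteins directly and feed NF-κB and MAP kinase signaling. On T cells, these receptors act as death receptors, as costimulatory receptors that appear after antigen receptor engagement, or as both.

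The mRNA of 10 such receptors, chosen by name (Fas, Tnfrsf1a, Tnfrsf1b, Tnfrsf4, Tnfrsf9, Tnfrsf10b, Tnfrsf13b, Tnfrsf18, Tnfrsf25 and Cd27), was examined in cDNT, mouse T cells without surface CD4 and CD8 that were converted ex vivo from CD4+CD25- T cells of adult C57BL/6 mice. All 10 were among the 29393 genes of the count table, and all 10 entered the test. The treated group (W/ IL-10) was exposed to IL-10 at 50 ng/ml over 24 h, and the control group (W/O IL-10) was not, with 3 libraries in each. The methods of the study describe conversion in culture with IL-2 and mature dendritic cells, then sorting, and name anti-CD3/CD28 antibodies in the IL-10 step, whereas the sample labels name sorted spleen cells and do not mention the antibodies. The labels do not say whether the libraries of a group came from separate cultures, so the p-values measure only the spread between these libraries, which may be technical.

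Each library held between 21619420 and 23967088 counts, and 3 counts corresponded to 0.125 to 0.139 CPM (counts scaled to the TMM-adjusted library size), a limit that covers counting error only. The cells carried T cell transcripts, with 7 of 7 marker genes tested and a summed level of 1486 to 1864 CPM in control and 1993 to 2074 CPM with IL-10. Cd4 had 1.12 to 1.55 CPM in control and 0.351 to 1.20 CPM with IL-10. In contrast, the transcripts of the CD8 chains were present, with Cd8a at 95.8 to 119 CPM in control and 139 to 169 CPM with IL-10, and Cd8b1 rose by 0.67 on the log2 scale with IL-10 (edgeR adjusted p = 0.0306). All 4 B cell markers (Ms4a1, Cd79a, Cd79b and Pax5) were detected, with summed levels of 50.1 to 126 CPM in control and 50.1 to 88.0 CPM with IL-10. The 6 macrophage or monocyte markers summed to 5.08 to 12.1 CPM in control and 4.66 to 5.25 CPM with IL-10, with C1qa and C1qb at 0 in every IL-10 library. Of the 7 dendritic cell markers, 6 were in the table, and they summed to 29.4 to 33.0 CPM in control and 50.1 to 61.0 CPM with IL-10. Itgax rose with IL-10, from 18.8 to 22.7 CPM in control to 39.9 to 49.4 CPM (log2 fold change 1.09, edgeR adjusted p = 0.00383). Zbtb46 went the other way, with 143 to 170 counts in control and 96 to 120 with IL-10 (log2 fold change -0.44, edgeR adjusted p = 0.212). Xcr1 had 85 to 99 counts in control and 105 to 147 with IL-10 (log2 fold change 0.60, edgeR adjusted p = 0.184). Flt3, Clec9a and Siglech had at most 7 counts in a library. The 4 regulatory T cell markers (Foxp3, Ikzf2, Il2ra and Lrrc32) summed to 636 to 698 CPM in control and 776 to 927 CPM with IL-10, with Foxp3 at 3 to 26 counts. Il2ra had 409 to 429 CPM in control and 518 to 627 CPM with IL-10 (edgeR adjusted p = 0.0548), and the groups of Ikzf2 overlapped. In contrast, Lrrc32 fell, from 38.6 to 42.4 CPM in control to 26.3 to 32.3 CPM with IL-10 (log2 fold change -0.52, edgeR adjusted p = 0.0423). The 3 NK cell markers (Ncr1, Eomes and Klrb1c) summed to 546 to 574 CPM in control and 383 to 413 CPM with IL-10. Most of this sum was Eomes, with 498 to 539 CPM in control and 353 to 384 CPM with IL-10 (log2 fold change -0.51, edgeR adjusted p = 0.0176). Ncr1 fell as well, from 5.46 to 8.05 CPM in control to 2.53 to 3.79 CPM with IL-10 (log2 fold change -1.15, edgeR adjusted p = 0.0460). The groups of Klrb1c overlapped (adjusted p = 0.444, edgeR).

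To compare receptors with each other, CPM were divided by the exon length of each gene in kb. Tnfrsf9, which encodes the costimulatory receptor 4-1BB, was the highest of the 10, with 226 ± 5.60 CPM per kb (SD, n = 3) in control and 242 ± 18.4 (SD, n = 3) with IL-10. It made up 55.8% ± 1.24 (SD, n = 3) of the summed per-kb level of the 10 receptors in control and 59.0% ± 2.17 (SD, n = 3) with IL-10. Tnfrsf1b and Cd27 came next. Tnfrsf1b, which encodes TNFR2, had 75.5 ± 1.85 CPM per kb in control and 60.7 ± 0.305 with IL-10 (SD, n = 3). Cd27, the receptor for CD70, had 58.4 ± 3.42 CPM per kb in control and 66.4 ± 1.72 with IL-10 (SD, n = 3). The order of these 2 receptors was therefore Tnfrsf1b above Cd27 in all 3 control libraries and the reverse in all 3 IL-10 libraries.

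The other 7 receptors lay well below these, with means from 3.92 CPM per kb upward in control and from 3.71 CPM per kb upward with IL-10. Tnfrsf1a, which encodes TNFR1, led them with 10.5 ± 0.837 CPM per kb in control (SD, n = 3), followed by Tnfrsf18 (GITR) with 8.45 ± 0.760 (SD, n = 3). Tnfrsf25 (DR3) had 7.16 ± 2.06 and Tnfrsf13b (TACI) 6.58 ± 0.189 CPM per kb in control (SD, n = 3), and the spread of Tnfrsf25 spanned the level of its neighbours in the order. Fas, Tnfrsf4 (OX40) and Tnfrsf10b (a mouse TRAIL receptor) had 4.35 ± 0.159, 4.11 ± 0.982 and 3.92 ± 0.240 CPM per kb in control (SD, n = 3). They did not differ from each other by more than the spread of Tnfrsf4. The 10 receptors together summed to 403 to 406 CPM per kb in the control libraries and to 391 to 421 CPM per kb in the IL-10 libraries, so that the ranges of the summed level overlapped.

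**Figure D1:**
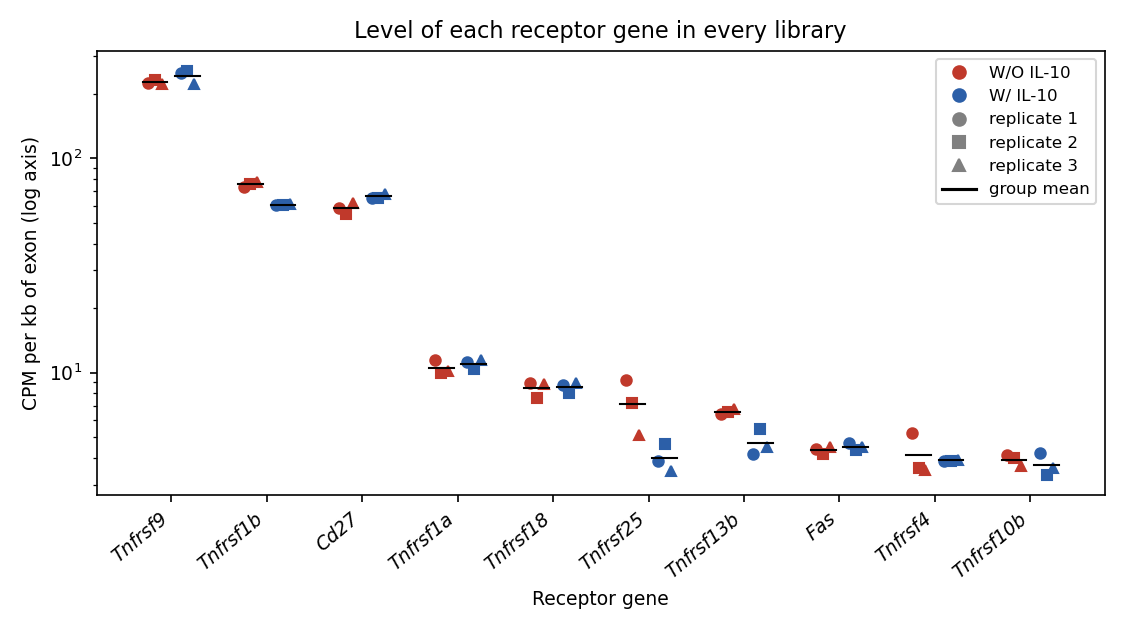
Level of each of the 10 receptor genes in CPM per kb of exon (log axis), with 1 point per library (red W/O IL-10, blue W/ IL-10, marker shape for the replicate number) and a black line at the group mean. Tnfrsf9 stands above all others, Tnfrsf1b and Cd27 change places, and the points of the groups are apart for Tnfrsf1b, Cd27, Tnfrsf25 and Tnfrsf13b.

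None of the 10 receptors passed the threshold for differential expression, a fold change of at least 1.5 with an adjusted p under 0.05 (quasi-likelihood test of edgeR, Benjamini-Hochberg adjustment over the 14916 tested genes). Over all tested genes, 1.45% passed it, 0.677% with a lower and 0.778% with a higher level with IL-10. At any fold change the adjusted p was under 0.05 for 0 of the 10, against 2.19% of all tested genes (0.979% lower, 1.21% higher), and the unadjusted p was under 0.05 for 4 of the 10, against 14.7%. By other tools the adjusted p was under 0.05 at any fold change for 3 of the 10 with DESeq2, against 5.17% of the genes to which it gave an adjusted p, and for 1 with limma-voom, against 2.06%. The same 4 receptors had groups that did not overlap, with Tnfrsf1b, Tnfrsf25 and Tnfrsf13b lower and Cd27 higher with IL-10. Among all tested genes, groups did not overlap in 22.6%, with 11.2% lower and 11.3% higher with IL-10. The median log2 fold change of the 10 receptors was -0.03, beside 0.01 over all tested genes, with 5 of the 10 below 0.

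**Figure D2:**
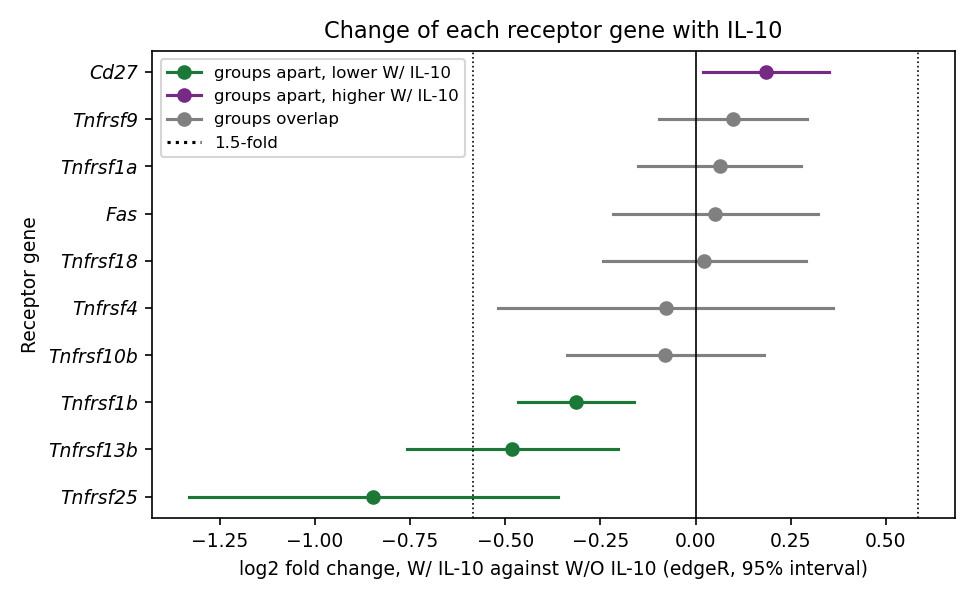
Log2 fold change of the 10 receptor genes W/ IL-10 against W/O IL-10 (points) with the 95% interval of the edgeR fit (bars), and dotted lines at a fold change of 1.5. The intervals of Tnfrsf25, Tnfrsf13b and Tnfrsf1b lie below 0, that of Cd27 lies just above 0, and those of the other 6 receptors include 0.

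Of the death domain receptors, Tnfrsf25 showed the largest difference of all 10 receptors. It encodes DR3, the receptor for the ligand TL1A, which costimulates T cells. Tnfrsf25 (ENSMUSG00000024793, chromosome 4 of GRCm38, 152115934 to 152120119, plus strand) had 21.0, 16.3 and 11.6 CPM in control (513, 395 and 269 counts, in the order of the replicate numbers, as throughout), and 8.79, 10.5 and 7.89 CPM with IL-10 (181, 237 and 180 counts). All 3 IL-10 libraries were below all 3 control libraries, and the latter were widely spread, with replicate 3 close to the IL-10 group. The log2 fold change was -0.85 (standard error 0.21, 95% interval -1.33 to -0.36, adjusted p = 0.0924, edgeR), a level 44.4% lower with IL-10. The size depended on the control libraries, as it was -0.63 without control replicate 1 (adjusted p = 0.0773) and -1.05 without control replicate 3 (adjusted p = 0.0334, edgeR), the only left-out library with which Tnfrsf25 passed the threshold. It also passed with DESeq2 (log2 fold change -0.85, adjusted p = 0.00465), without a filter on low counts (adjusted p = 6.10e-06, edgeR), and when GC content and length were corrected for, where the log2 fold change was -0.73 (adjusted p = 0.0478, edgeR). Of 15 alternatives, 5 put Tnfrsf25 past the threshold, including the same correction with a replicate block (adjusted p = 0.0111, edgeR). Those that did not included limma-voom (adjusted p = 0.131), upper-quartile normalization (0.0851, edgeR) and the replicate block alone (0.0629, edgeR). With any library other than control replicate 3 left out, the adjusted p was 0.0773 to 0.346 (edgeR). The transcripts of Tnfrsf25 have 58.6% GC, and over the 2724 tested genes of 55 to 60% GC the median log2 fold change was -0.08. In these bulk samples, fewer cells that express a gene and less RNA per cell cannot be told apart, and this holds for each receptor below.

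Tnfrsf25 has 2 annotated starts in RefSeq, and the 300 bases around each (250 before to 50 after the start, GRCm38.p6) are shown because this gene had the largest difference and the windows differ in the motifs they hold. Capitals mark matches on either strand to a STAT motif (TTCNNNGAA), an AP-1 motif (TGANTCA), a GC box (GGGCGG) or the κB consensus, and overlapping matches run together. The upstream window (chr4:152115684-152115983, plus strand) held 2 overlapping GC boxes after the start and none of the other motifs.
Tnfrsf25, upstream start: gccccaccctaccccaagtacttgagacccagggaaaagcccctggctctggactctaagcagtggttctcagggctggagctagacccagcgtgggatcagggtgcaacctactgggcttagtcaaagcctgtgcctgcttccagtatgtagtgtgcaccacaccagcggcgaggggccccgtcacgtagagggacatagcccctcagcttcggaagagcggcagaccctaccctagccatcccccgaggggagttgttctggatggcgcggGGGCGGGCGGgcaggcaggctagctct
The downstream window (chr4:152116093-152116392, plus strand) held 1 STAT match 16 bases before the start and 2 matches to the κB consensus, 1 of them 28 bases before the start.
Tnfrsf25, downstream start: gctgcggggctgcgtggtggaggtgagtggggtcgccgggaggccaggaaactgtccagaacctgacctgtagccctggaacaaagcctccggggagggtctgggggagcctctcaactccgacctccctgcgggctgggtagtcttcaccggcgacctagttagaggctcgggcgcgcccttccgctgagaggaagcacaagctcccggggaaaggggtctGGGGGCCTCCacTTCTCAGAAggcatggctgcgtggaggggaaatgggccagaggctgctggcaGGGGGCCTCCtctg
Over all 32851 windows of the table, 8.30% held the STAT motif, 7.81% the AP-1 motif, 35.7% the GC box and 8.46% the κB consensus. Such a match is a description of the letters only.

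Fas, the receptor for Fas ligand that starts caspase-8 activation (ENSMUSG00000024778, chromosome 19, 34290666 to 34327772, plus strand), had 9.11, 8.60 and 9.22 CPM in control and 9.67, 9.01 and 9.25 CPM with IL-10. The groups overlapped, and the log2 fold change was 0.05 (standard error 0.12, 95% interval -0.22 to 0.32, adjusted p = 0.880, edgeR), an interval that spans fold changes of 0.860 to 1.25. With GC content and length corrected for, it was -0.05. Tnfrsf1a, which encodes TNFR1, the receptor that signals through TRADD (ENSMUSG00000030341, chromosome 6, 125349362 to 125362484, plus strand), had 29.8, 25.8 and 26.4 CPM in control and 29.2, 27.0 and 29.5 CPM with IL-10. Its groups overlapped as well (log2 fold change 0.06, 95% interval -0.15 to 0.28, adjusted p = 0.804, edgeR). Tnfrsf10b, a receptor for TRAIL (ENSMUSG00000022074, chromosome 14, 69767472 to 69784411, plus strand), is not unique in sequence throughout, as 6.21% of its 50-base stretches also occur in other genes. It had 22.5, 21.7 and 19.9 CPM in control and 22.9, 18.2 and 19.6 CPM with IL-10 (log2 fold change -0.08, 95% interval -0.34 to 0.18, adjusted p = 0.795, edgeR). Thus the libraries of the groups overlapped for 3 of the 4 death domain receptors, and their 95% intervals lay within a fold change of 1.5 in either direction.

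Of the receptors that bind TRAF adaptors, Tnfrsf1b had the lowest unadjusted p of the 10 receptors. It encodes TNFR2, which lacks a death domain and binds membrane TNF and lymphotoxin alpha. Tnfrsf1b (ENSMUSG00000028599, chromosome 4, 145213463 to 145246870, minus strand) had 280.5, 289.7 and 294 CPM in control, and 232, 231 and 233 CPM with IL-10. The groups were far apart relative to their spread, and the IL-10 libraries were nearly equal. The log2 fold change was -0.31 (standard error 0.07, 95% interval -0.47 to -0.16), a level 19.6% lower, and the adjusted p of 0.0546 (edgeR) was just above 0.05. It was under 0.05 with DESeq2 (0.00357), limma-voom (0.0479), upper-quartile normalization (0.0442) and the other filters on low counts (0.0414 without one and 0.0467 with at least 10 counts in every library), and above it with GC content and length corrected for (log2 fold change -0.24, adjusted p = 0.0982, edgeR). With each library left out in turn, the log2 fold change stayed between -0.34 and -0.31 and the adjusted p lay between 0.0234 and 0.218 (edgeR). The fold change was below 1.5 in all of these. The summed level of the NK cell markers, most of it Eomes, was also lower in every IL-10 library than in any control library. The part of this sum in the differences of Tnfrsf25 and Tnfrsf1b was not tested.

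The window around the start of Tnfrsf1b (chr4:145246821-145247120, minus strand, same marks) is shown because this receptor had the lowest p of the 10. It held 1 STAT match 181 bases before the start and 2 GC boxes 67 and 57 bases before it.
Tnfrsf1b: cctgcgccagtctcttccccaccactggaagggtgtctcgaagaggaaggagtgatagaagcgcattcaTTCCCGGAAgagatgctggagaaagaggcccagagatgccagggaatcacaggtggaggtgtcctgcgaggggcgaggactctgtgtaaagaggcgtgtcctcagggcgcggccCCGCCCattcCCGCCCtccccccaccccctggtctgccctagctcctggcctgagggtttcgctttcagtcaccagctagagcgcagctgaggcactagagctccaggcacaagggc

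Both TNF receptors were compared within each library, as they share their ligands. The ratio of Tnfrsf1b to Tnfrsf1a on the per-kb scale was 6.39, 7.63 and 7.58 in the control libraries and 5.39, 5.81 and 5.36 in the IL-10 libraries. Every IL-10 library was below every control library, with means of 7.20 ± 0.701 and 5.52 ± 0.249 (SD, n = 3; two-sided exact permutation test of the log2 ratio, p = 0.1, the smallest that 3 libraries against 3 can give, adjusted p = 0.2 over 2 ratios). Tnfrsf18 and Tnfrsf4 lie 9.55 kb apart on chromosome 4, and the ratio of Tnfrsf18 to Tnfrsf4 on the per-kb scale was 2.12 ± 0.411 in control and 2.21 ± 0.113 with IL-10 (SD, n = 3; exact permutation p = 0.8, adjusted p = 0.8). Both ratios were chosen with the values of the genes known.

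Tnfrsf13b encodes TACI, a receptor for BAFF and APRIL that is best known on B cells. Tnfrsf13b (ENSMUSG00000010142, chromosome 11, 61126755 to 61149372, plus strand) had 18.2, 18.5 and 19.3 CPM in control (446, 447 and 447 counts), and 11.9, 15.5 and 12.8 CPM with IL-10 (244, 348 and 291 counts). The control libraries were nearly equal, and all IL-10 libraries were below them. The log2 fold change was -0.48 (standard error 0.12, 95% interval -0.76 to -0.20), a level 28.4% lower, with an adjusted p of 0.0942 (edgeR). The adjusted p was 0.0313 with DESeq2 and 0.0189 without a filter on low counts (edgeR), and above 0.05 in the other 13 of 15 alternatives, such as limma-voom (0.091), the GC content and length correction (0.0845, edgeR) and single libraries left out (0.0647 to 0.327, edgeR). The log2 fold change lay between -0.60 and -0.40 when single libraries were left out.

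B cell transcripts varied between the libraries. The 4 B cell markers summed to 50.1, 126 and 84.6 CPM in control and to 50.1, 88.0 and 50.9 CPM with IL-10, in the order of the replicate numbers, and none of the 4 had an adjusted p under 0.05 (edgeR). Within the control group, where this sum was lowest in replicate 1 and highest in replicate 2, the counts of Tnfrsf13b differed by 1 at most. Within the IL-10 group, replicate 2 had both the highest sum of B cell markers and the highest Tnfrsf13b level. The part of B cell transcripts in the difference of Tnfrsf13b was not tested. Tnfrsf13c, which encodes the BAFF receptor of B cells, had 1.80, 4.30 and 4.69 CPM in control and 1.85, 3.24 and 2.10 CPM with IL-10, with overlapping groups (adjusted p = 0.528, edgeR), and was lowest in the libraries labelled replicate 1 of each group.

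**Figure D3:**
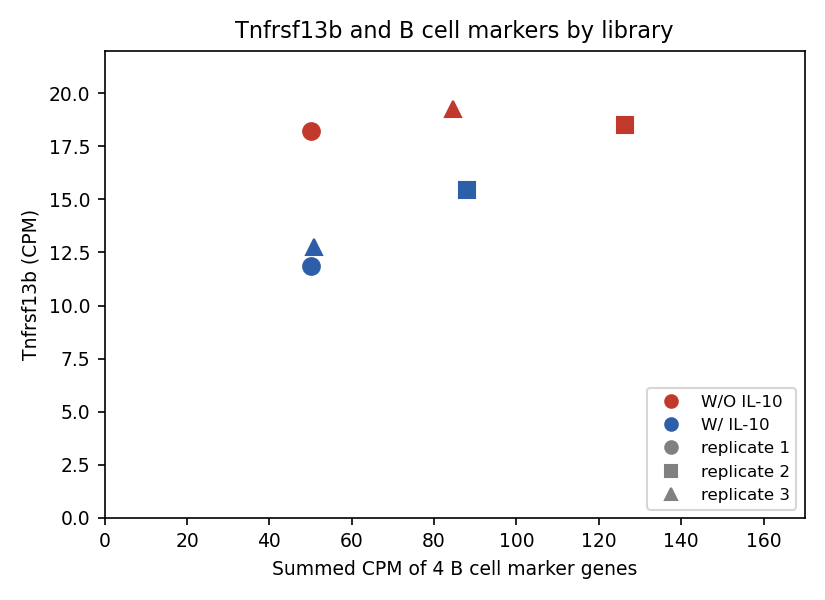
Tnfrsf13b (CPM) against the summed CPM of 4 B cell marker genes, with 1 point per library (red W/O IL-10, blue W/ IL-10, marker shape for the replicate number) and both axes starting at 0. The 3 W/O IL-10 libraries lie at 18.2 to 19.3 CPM of Tnfrsf13b across B cell sums of 50.1 to 126 CPM, and the 3 W/ IL-10 libraries lie at 11.9 to 15.5 CPM.

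The window around the start of Tnfrsf13b (chr11:61126505-61126804, plus strand) is shown for contrast, as it held no match to any of the 4 motifs. The windows of Cd27 and Tnfrsf4 held none either.
Tnfrsf13b: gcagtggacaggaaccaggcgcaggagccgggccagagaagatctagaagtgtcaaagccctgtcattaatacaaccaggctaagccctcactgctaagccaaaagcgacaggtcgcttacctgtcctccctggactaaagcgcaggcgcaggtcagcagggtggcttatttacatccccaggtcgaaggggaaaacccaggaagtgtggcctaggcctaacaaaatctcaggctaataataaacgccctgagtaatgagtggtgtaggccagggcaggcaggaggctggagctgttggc

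Cd27 was the 1 receptor of the 10 whose groups were apart with a higher level after IL-10. CD27 is a costimulatory receptor of T cells and is bound by CD70. Cd27 (ENSMUSG00000030336, chromosome 6, 125232622 to 125237010, minus strand) had 137, 128 and 144 CPM in control and 153, 152 and 159 CPM with IL-10. The log2 fold change was 0.18 (standard error 0.07, 95% interval 0.02 to 0.35), a level 13.7% higher, with an adjusted p of 0.278 (edgeR). With each library left out in turn, the log2 fold change lay between 0.13 and 0.21, with adjusted p of 0.314 to 0.580 (edgeR). It was 0.27 when GC content and length were corrected for (adjusted p = 0.104) and also when the replicate number was a block in that fit (adjusted p = 0.0312, edgeR), the 1 alternative of 15 in which it was under 0.05. The summed level of the T cell markers was also higher in every IL-10 library than in any control library, and its part in the difference of Cd27 was not tested. Of the exon bases of Cd27, 5.54% lie under Mir8113 on the same strand. Cd27 and Tnfrsf1a are neighbours on chromosome 6, with Ltbr between them.

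Tnfrsf9 encodes 4-1BB, which is induced on T cells by activation (ENSMUSG00000028965, chromosome 4, 150914562 to 150946102, plus strand). It had 609, 633 and 604 CPM in control and 679, 695 and 601 CPM with IL-10. The highest values were in IL-10 replicates 1 and 2, whereas replicate 3 was below all control libraries, and the log2 fold change was 0.10 (standard error 0.09, 95% interval -0.10 to 0.29, adjusted p = 0.642, edgeR). Its 2 annotated starts differed in the motifs of their windows. The window of the downstream start (chr4:150927749-150928048, plus strand) held 1 STAT match, 1 AP-1 match 15 bases before the start and 2 overlapping matches to the κB consensus 43 and 42 bases before it, and is shown as it belongs to the most abundant receptor.
Tnfrsf9, downstream start: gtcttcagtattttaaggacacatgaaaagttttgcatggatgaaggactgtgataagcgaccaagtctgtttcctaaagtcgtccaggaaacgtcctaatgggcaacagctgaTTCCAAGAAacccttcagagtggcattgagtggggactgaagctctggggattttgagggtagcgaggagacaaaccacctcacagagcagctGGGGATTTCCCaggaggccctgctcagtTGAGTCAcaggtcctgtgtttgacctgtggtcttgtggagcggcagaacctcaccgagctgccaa
Windows were found for 9 of the 10 receptors, 11 windows in all. The STAT motif was in 6 of the 11 windows, those of Tnfrsf1b, Tnfrsf9, Tnfrsf25, Tnfrsf18, Tnfrsf1a and Fas, and so stood both in receptors whose groups were apart and in receptors whose groups overlapped. The GC box was in 4 of the 11 windows, the AP-1 motif in 2 and the κB consensus in 2.

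Tnfrsf4 and Tnfrsf18 encode OX40 and GITR, costimulatory receptors of activated and regulatory T cells. Tnfrsf4 (ENSMUSG00000029075, chromosome 4, 156013843 to 156016612, plus strand) had 7.15, 4.88 and 4.78 CPM in control and 5.30, 5.28 and 5.35 CPM with IL-10. Control replicate 1 was above all other libraries, and the log2 fold change was -0.08 (95% interval -0.52 to 0.36, adjusted p = 0.890, edgeR). Without that library it was 0.13. Tnfrsf18 (ENSMUSG00000041954, chromosome 4, 156026164 to 156028895, plus strand) had 13.6, 11.5 and 13.5 CPM in control and 13.4, 12.3 and 13.6 CPM with IL-10, with overlapping groups (log2 fold change 0.02, 95% interval -0.24 to 0.29, adjusted p = 0.953, edgeR). Of its exon bases, 27.2% lie under the opposite-strand gene Gm16008, and it is not known whether the counting used strand. Neither gene differed by more than the spread, and their 95% intervals lay within a fold change of 1.5.

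**Figure D4:**
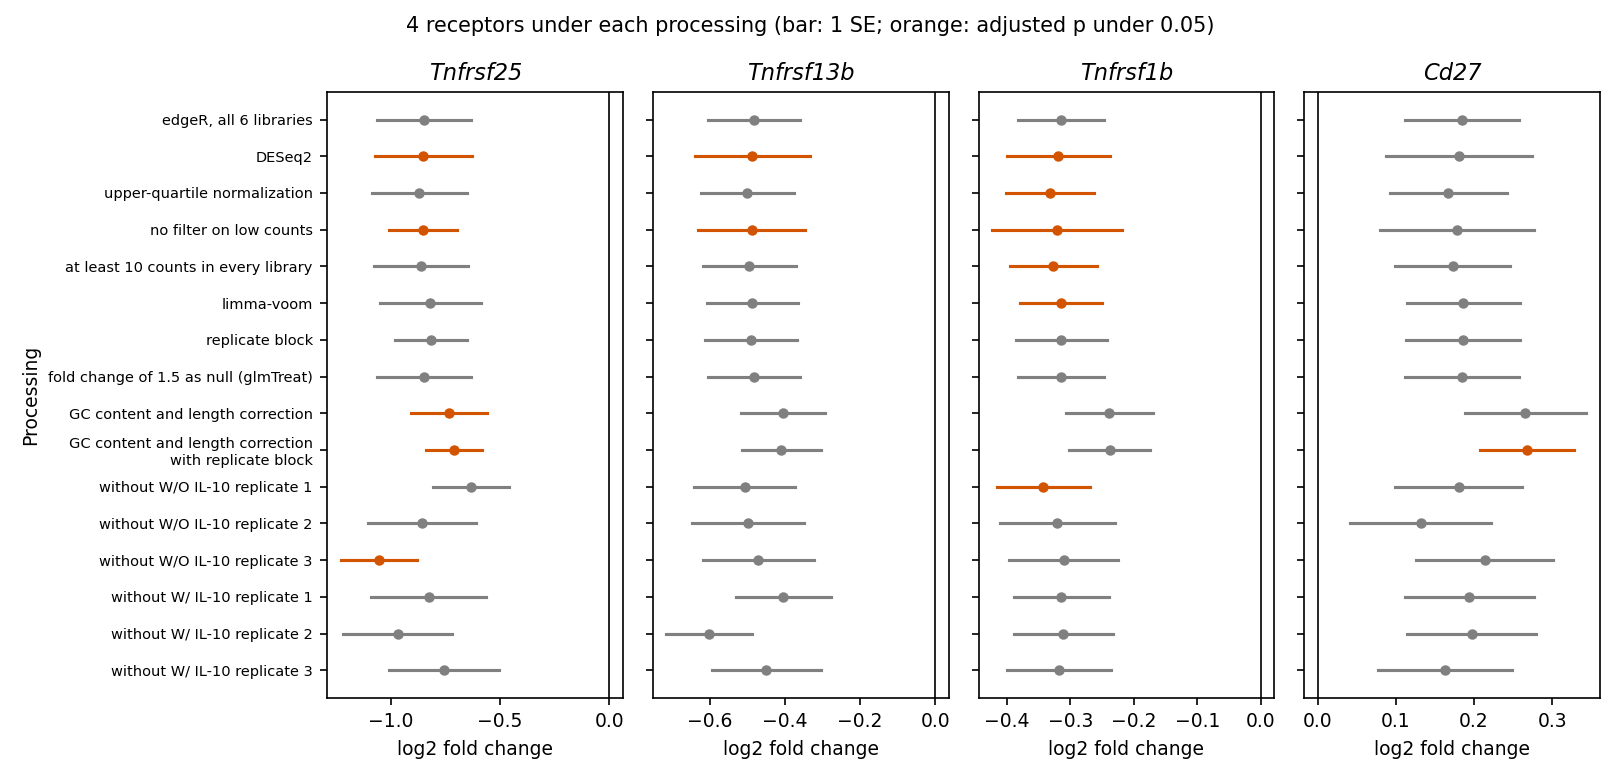
Log2 fold change of the 4 receptors whose groups did not overlap, under each processing (rows), with bars of 1 standard error and orange where the adjusted p is under 0.05 (each panel has its own axis). The sign of each receptor is the same in every row, whereas the side of the 0.05 threshold changes between rows.

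Ligands of the 10 receptors were read from the same fit. Of 11 ligand genes, 8 entered the test, and 1 rose and 1 fell past the threshold, against 0.778% and 0.677% of all tested genes, with a median log2 fold change of 0.06 beside 0.01 over all tested genes. Tnfsf10, which encodes TRAIL, rose with a log2 fold change of 2.04 (edgeR adjusted p = 0.000503). That of Tnfrsf10b, the TRAIL receptor among the 10, was -0.08 (edgeR adjusted p = 0.795). Lta, which encodes lymphotoxin alpha, fell with a log2 fold change of -0.88 (edgeR adjusted p = 0.0213), from 12.5, 11.5 and 11.3 CPM in control to 6.95, 6.79 and 5.43 CPM with IL-10. Tnf, the other ligand of both TNF receptors, had a log2 fold change of -0.04 with overlapping groups (adjusted p = 0.896, edgeR). Tnfsf9, the ligand of 4-1BB, had 4.38 to 5.76 CPM in control and 6.32 to 7.02 CPM with IL-10 (log2 fold change 0.40, adjusted p = 0.295, edgeR), and its groups were apart. Of the exon bases of Tnfsf9, 14.9% lie under the opposite-strand gene Gm11110. Fasl had a log2 fold change of -0.01 and Tnfsf4, the ligand of OX40, of 0.14, and neither passed the test (adjusted p = 0.979 and 0.659, edgeR). Tnfsf13b and Tnfsf13 encode BAFF and APRIL, the ligands of TACI. Tnfsf13b had 27 to 61 counts per library with overlapping groups (log2 fold change 0.03, edgeR adjusted p = 0.979), and Tnfsf13 had at most 8 counts and was not tested. Of the exon bases of Tnfsf13, 60.05% lie under the same-strand gene Tnfsfm13 and 13.5% under the opposite-strand gene Tnfsf13os. It is not known how reads in shared bases were counted, so its low counts need not mean a low level. The ligands of DR3, GITR and CD27 were scarce or at the limit of detection, with at most 7 counts of Tnfsf15, 2 counts of Tnfsf18 and 18 counts of Cd70 in a library.

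Of 26 signaling genes downstream of these receptors, all entered the test, none passed the threshold and 1 had an adjusted p under 0.05 at a smaller fold change (edgeR), against 2.19% of all tested genes. The unadjusted p was under 0.05 for 8 of the 26, against 14.7% of all tested genes. The 1 gene was Traf1, which encodes a TRAF adaptor that binds TNFR2 and 4-1BB. Traf1 had 329, 299 and 320 CPM in control and 408, 403 and 444 CPM with IL-10, and rose with IL-10 (log2 fold change 0.41, standard error 0.08, edgeR adjusted p = 0.0422). Over the 26 genes, the groups were apart for 7 with higher and 5 with lower levels with IL-10. Over all tested genes they were apart in 22.6%, with 11.3% higher and 11.2% lower. Among the 5 death domain adaptors and initiators, 3 were higher and 1 lower, and among the 7 TRAF and IAP genes 2 were higher and 1 lower. Among the 14 genes of the NF-κB arm, 2 were higher and 3 lower. The median log2 fold change was 0.09 over the death domain adaptors and initiators, 0.12 over the 7 TRAF and IAP genes and 0.01 over the NF-κB arm.

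Of 18 further receptors of the superfamily, 17 were in the table and 14 entered the test. None passed the threshold or had an adjusted p under 0.05 (edgeR), and 4 of the 14 had an unadjusted p under 0.05, against 14.7% of all tested genes. Their log2 fold changes lay between -1.34 and 0.56, with a median of -0.08, and the groups were apart for 2 with higher and 2 with lower levels with IL-10, against 22.6% of all tested genes.

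**Figure D5:**
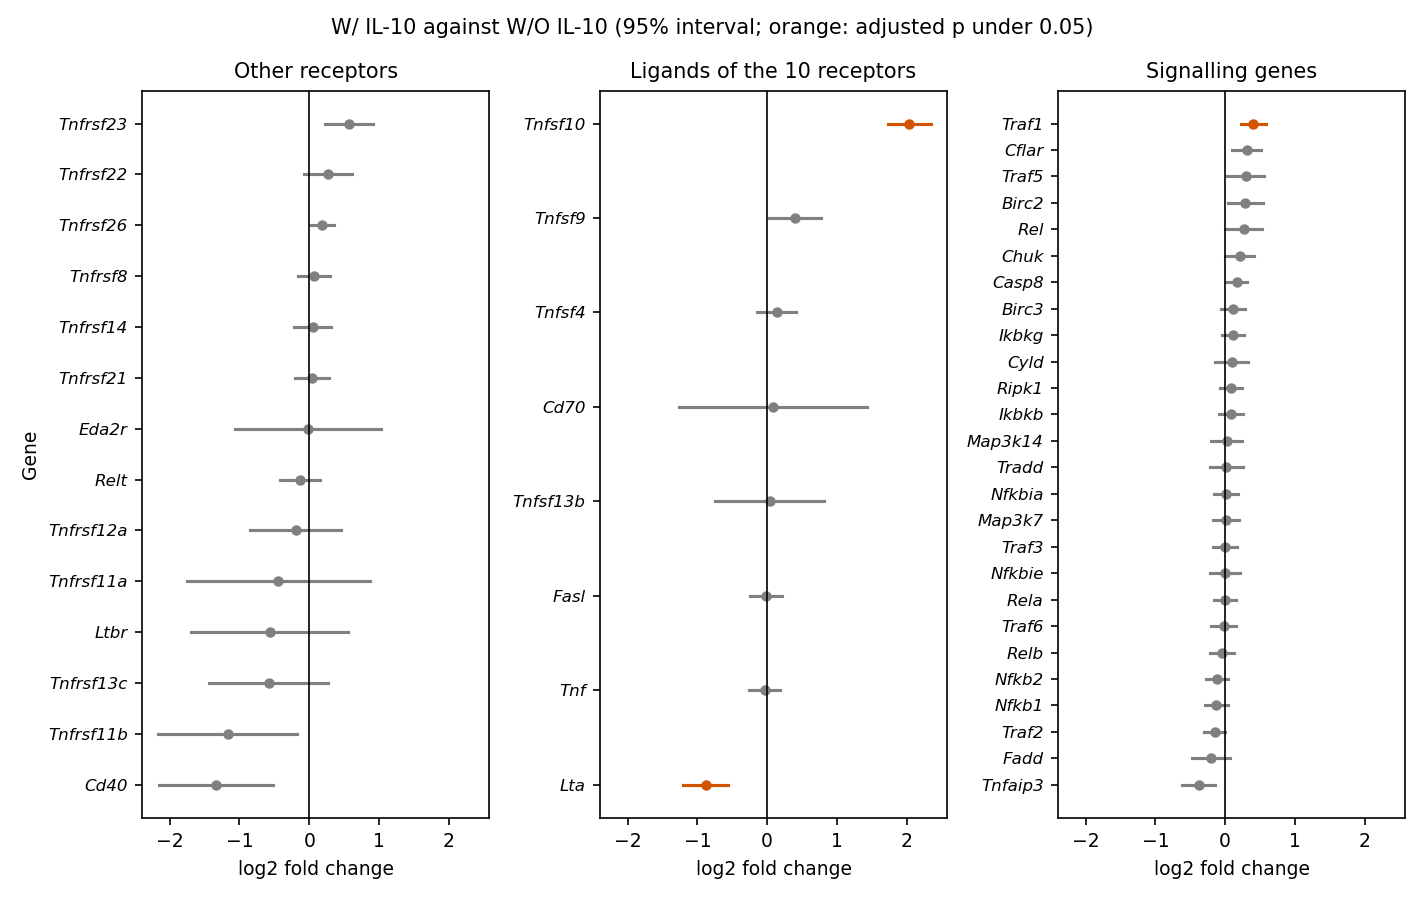
Log2 fold change W/ IL-10 against W/O IL-10 with the 95% interval (edgeR) for the tested genes among the other receptors (14), the ligands (8) and the signaling genes (26), on 1 shared axis. Tnfsf10 and Traf1 lie above 0 and Lta below 0 with an adjusted p under 0.05 (orange), and all others are grey.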

How the data were processed

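The authors deposited 1 table of whole-number counts per Ensembl gene for the 6 libraries, not normalized and not pooled. The submitters' processing notes name HISAT2, HTSeq and GRCm38, whereas the methods of the study name TopHat and Cufflinks. Versions and the use of strand are not given in the sources used here. Of 29393 identifiers, 29332 were found in GENCODE release M21 of GRCm38, which gave symbols, coordinates and exon lengths.

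The deposited counts were scaled by TMM and tested with the quasi-likelihood test of edgeR 4.0.16 (R 4.3.3), without a block. Genes entered with 10 counts or more in 3 libraries or more, 14916 in all. Adjusted p-values are Benjamini-Hochberg values over these genes. Standard errors of the log2 fold changes were derived from the F statistics. The threshold was that of the study. Alternatives were DESeq2 1.42.0, limma-voom (limma 3.58.1), upper-quartile normalization, other filters, a replicate block, glmTreat against a fold change of 1.5, a spline correction (5 degrees of freedom) for GC content and length, and each library left out in turn, with the genes tested kept as in the full set. The receptors and lists were chosen with earlier results of these data known. All 10 receptors are described, and of the other listed genes those past the test and the ligands were named. Genes of like pattern were to be named for receptors past the threshold, and there were none. Tnfrsf13c, Tnfrsf23, Tnfrsf22, Tnfrsf26, Cd40 and Tnfrsf11b were named after their values were seen. Promoter windows came from RefSeq (GRCm38.p6). Tnfrsf10b had no entry. 1 further marker gene is not reported here. In simulated counts, a call was an adjusted p under 0.05 at any fold change. The rates are therefore not those of the threshold with its 1.5-fold condition. With 14657 genes, 200 of them changed 1.5-fold, 27.0% of the changed genes were recovered by edgeR and 11.5% of its calls were false. At a fold of 2 (14659 genes) edgeR recovered 68.0%, with 12.3% false calls. DESeq2 recovered 43.5% at 1.5-fold and 74.0% at a fold of 2, with more false calls, 28.1% and 20.4%. For limma-voom the false calls were 12.2% and 12.0%.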

Additional observations from a re-analysis of the deposited data

How the results depend on the processing

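The threshold was passed by 116 genes upward and 101 downward over the whole table. The counts upward and downward were 176 and 183 with DESeq2, 302 and 337 without a filter on low counts, 175 and 179 after the GC content and length correction with the replicate block, and 14 and 1 with a fold change of 1.5 as the null. At any fold change 181 rose. With 1 library left out they ranged from 31 to 124 upward and from 4 to 127 downward, with 52 and 31 without control replicate 2, 45 and 11 without IL-10 replicate 1, 62 and 34 without IL-10 replicate 2, and 31 and 4 without IL-10 replicate 3. No receptor passed in the edgeR test of the report, and 1 of the 10, Tnfrsf25, passed downward with DESeq2, without the filter, after the GC content and length correction, and after that correction with the replicate block. With 1 library left out, 0 to 1 passed downward and 0 upward. In 145 of the 150 values of single receptors under the alternatives the side of the threshold was kept, and in 143 the sign. Fas, Tnfrsf4 and Tnfrsf18 changed sign in some. The cause of these changes was not tested.

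Both groups carry replicate numbers 1 to 3, and nothing in the labels ties equal numbers together. Deviations of same-numbered libraries correlated by 0.0524, -0.0573 and 0.114 across genes, beside a mean of -0.0175 for different numbers. With the replicate block, 103 genes rose and 93 fell past the threshold, with none of the 10 receptors among them. Depth limits the scarce ligands, since 18 counts or fewer decide their values.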

Other observations

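Tnfrsf26, Tnfrsf22 and Tnfrsf23, receptors of the superfamily without the death domain of Fas, lie next to each other on chromosome 7, with gaps of 6.08 and 16.1 kb. They were chosen after their values were seen. Tnfrsf23 had 22.5, 16.6 and 18.7 CPM in control and 31.9, 23.3 and 30.3 CPM with IL-10, with the groups apart (log2 fold change 0.56, standard error 0.15, adjusted p = 0.113, edgeR). Tnfrsf26 had a log2 fold change of 0.19, also with the groups apart (adjusted p = 0.298), and Tnfrsf22 of 0.27 with overlapping groups (adjusted p = 0.464, edgeR). The antisense gene E230032D23Rik lies over 4.14% of the exon bases of Tnfrsf23 and 3.33% of those of Tnfrsf26. A pair of scarcer receptors, Cd40 and Tnfrsf11b, was lower in every IL-10 library. Cd40 had 1.14, 1.37 and 0.948 CPM in control and 0.486, 0.533 and 0.351 CPM with IL-10, which was 8 to 33 counts per library (log2 fold change -1.34, adjusted p = 0.112, edgeR). Tnfrsf11b, which encodes the decoy receptor osteoprotegerin, had 46 to 57 counts in control and 8 to 31 counts with IL-10 (log2 fold change -1.17, adjusted p = 0.257, edgeR).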
